A study of Mus musculus with 4 samples.

Results

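Vcam1, Icam1, Icam2, Sele, Selp, Cd34 and Cdh2 were chosen by symbol, as 7 of the 32285 genes counted, because each encodes a cell surface molecule that blood cells can meet when they enter or lodge in bone marrow. They were followed in single-cell RNA profiles of limb bone marrow from C57BL/6 mice at postnatal day 12. There were 2 control libraries and 2 libraries from mutant mice carrying Prx1-cre and Mettl3-fl/fl, a floxed gene for the catalytic subunit of the complex that places N6-methyladenosine on RNA. The label of mutant 2 gives its genotype only as mutant, the labels list no alleles for the controls, and no other treatment is given. The cre is driven by Prx1 sequences that are active in limb mesenchyme, so blood vessel and blood cells are not its known targets. Live cells that took up calcein and lacked CD45 and Ter119 were sorted from 3 control and 3 mutant mice. No label ties a mouse to a library. The p-values below therefore rest on libraries and not on mice, and part of the spread between libraries may be technical. In the genotype fits that spread is what remains after genotype and processing batch (defined below), shared in part or in full across genes.

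Blood cells leave the circulation in steps. Selectins on the vessel wall (E-selectin from Sele and P-selectin from Selp) slow the passing cell, which then arrests when its integrins bind immunoglobulin-family ligands such as VCAM-1, ICAM-1 and ICAM-2. VCAM-1 is the ligand of integrin alpha4 beta1 and is carried in marrow by sinusoids and by the CXCL12-rich reticular stroma around them. CD34 is a sialomucin of capillary and arterial endothelium and of blood progenitors, and Cdh2 encodes N-cadherin, a calcium-dependent adhesion molecule of bone-lining and stromal cells.

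The genes were placed on mm10 with the GENCODE M21 annotation, and all are protein coding. Vcam1 (ENSMUSG00000027962) lies at chr3:116109949-116129688 on the minus strand, Icam1 (ENSMUSG00000037405) at chr9:21015985-21028817 on the plus strand and Icam2 (ENSMUSG00000001029) at chr11:106377656-106388075 on the minus strand. On the plus strand of chromosome 1 are Sele (ENSMUSG00000026582, chr1:164048234-164057677), Selp (ENSMUSG00000026580, chr1:164115264-164150026) and Cd34 (ENSMUSG00000016494, chr1:194938819-194961279), with 57.6 kb between Sele and Selp. Cdh2 has the identifier ENSMUSG00000024304. All but Icam2 and Sele overlap a gene on the opposite strand. The sources do not say whether counting used strand, so they do not tell how reads of such pairs were assigned.

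The promoters of Sele, Selp and Cd34 are shown because Sele and Selp fell and Cd34 rose in mutant endothelium, as described further on. Each is the 250 bases upstream of the RefSeq transcript start on GRCm38.p6, plus strand, at chr1:164047984-164048233 for Sele, chr1:164115014-164115263 for Selp and chr1:194938571-194938820 for Cd34. Capitals mark matches to GGNNNTTCC, a relaxed form of the NF-kB site searched on both strands, and to TATAAA.
Sele: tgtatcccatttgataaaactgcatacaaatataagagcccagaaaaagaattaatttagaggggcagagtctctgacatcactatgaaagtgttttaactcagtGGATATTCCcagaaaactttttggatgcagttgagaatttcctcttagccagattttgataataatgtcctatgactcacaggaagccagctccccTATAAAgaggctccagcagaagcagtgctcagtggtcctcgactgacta
Selp: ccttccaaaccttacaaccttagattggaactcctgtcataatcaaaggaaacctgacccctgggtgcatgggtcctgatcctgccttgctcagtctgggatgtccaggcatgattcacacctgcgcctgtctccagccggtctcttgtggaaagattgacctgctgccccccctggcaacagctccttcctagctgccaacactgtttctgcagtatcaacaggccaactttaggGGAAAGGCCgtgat
Cd34: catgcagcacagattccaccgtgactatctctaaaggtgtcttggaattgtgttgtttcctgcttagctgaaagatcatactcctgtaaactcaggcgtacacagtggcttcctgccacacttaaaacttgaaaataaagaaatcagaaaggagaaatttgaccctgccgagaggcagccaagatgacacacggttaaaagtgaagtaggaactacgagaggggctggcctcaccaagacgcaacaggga
The Sele promoter held GGATATTCC at -145 to -137 and TATAAA at -49 to -44 from the start site. The Selp promoter held GGAAAGGCC at -14 to -6, a match to GGNNNTTCC on the minus strand. The Cd34 window held neither motif. The promoter of Icam1 (chr9:21015690-21015939) held GGAAATTCC at -153 to -145, which matches on both strands, and GGAAATACC at -84 to -76 on the minus strand. Over 32851 promoters of the same length, 15.7% held GGNNNTTCC and 12.4% held TATAAA. The EBF palindrome, held by 0.779% of promoters, was in none of the 4 windows read, and neither was the stricter NF-kB consensus, held by 3.9%. Promoters of 4 of the 7 genes were read, and those of Vcam1, Icam2 and Cdh2 were not.

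Total UMIs were 47390414 to 116863081 per library, and 2628 to 5808 cells per library passed the filter, at a median of 10186 to 24080 UMIs. Cells were assigned to gates by counting detected markers, and none of the 7 genes was a marker. A level is given below in CPM, a gene's UMIs scaled to the UMI total of its gate, with no scaling by transcript length, so levels were compared between cell types and libraries and not between genes. Control 1 and mutant 1 form batch 1 and control 2 and mutant 2 form batch 2, by the Cell Ranger version in the processing notes. The 2 control libraries differed in makeup: control 1 held 937 stromal and 25 endothelial gate cells, and control 2 held 45 and 534. In the mutants the stromal gate held 22 and 14 cells and the endothelial gate 45 and 830. Although the sort took CD45- Ter119- cells, labelled non-hematopoietic, erythroid gate cells were 57.5%, 69.2%, 3.35% and 17.3% of kept cells in control 1, control 2, mutant 1 and mutant 2. Mettl3 itself was low. In the mesenchymal gate its levels were 10.9 and 12.7 CPM in the controls and 3.76 and 6.5 in the mutants (log2 difference, mutant minus control, -0.97 ± 0.30 SE, adjusted p = 0.0308, edgeR). In the endothelial gate they were 24.6 and 19.8 against 16.5 and 18.8 CPM (log2 difference -0.14 ± 0.39, adjusted p = 1). The 3′ tags may lie outside the deleted exons, so these levels do not check the deletion.

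In control marrow each gene had 1 or 2 cell types in which it stood well above the rest. Vcam1 reached 2278 ± 513 CPM in stromal gate cells, which carry Cxcl12, Lepr and Adipoq, and 428 ± 4.46 CPM in endothelial gate cells (SD, n = 2 libraries). The osteolineage gate, marked by Bglap and Col1a1, had 9.49 ± 2.63 CPM, and its 2 libraries overlapped with those of the neutrophil and B lineage gates. The erythroid gate, which should lack the gene, had 0.499 ± 0.538 CPM, the lowest of the 7 gates ranked.

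Among the 7 gates with at least 20 cells in both controls, Icam1, Icam2, Sele, Selp and Cd34 all had their highest control mean in the endothelial gate. Sele was found almost nowhere else. It had 132 ± 4.53 CPM there, 4 UMIs in all erythroid cells and no UMI in the stromal, osteolineage, B lineage, megakaryocyte or neutrophil gates. In stromal cells, where Sele had 0 UMIs, 3 UMIs would have given 0.490 CPM in control 1 and 9.02 CPM in control 2. Selp had 276 ± 8.06 CPM in endothelium and 64.8 ± 56.4 CPM in megakaryocytes, the precursors of platelets, whose granules store P-selectin. The megakaryocyte values were 105 CPM in control 1 and 25.0 CPM in control 2, and both lay above the 5 lower gates of the 7 ranked.

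Icam1 had 181 ± 20.4 CPM in control endothelium, 16.4 ± 4.40 in B lineage cells and 7.38 ± 6.19 in stromal cells. Icam2 had 417 ± 150 CPM in endothelium and 35.5 CPM in the B lineage gate of both controls. Erythroid cells held 3.87 and 4.49 CPM of Icam2, above the stromal and osteolineage gates, which held 1 UMI each over both controls. Cd34 had 228 ± 130 CPM in endothelium, where the controls differed, with 320 CPM in control 1 and 135.5 CPM in control 2. It had no UMI in stromal cells of any library, and among the 7 gates B lineage cells came next at 3.92 ± 4.50 CPM. Outside these gates, the 6 fibroblast gate cells of control 1 held 383 CPM of Cd34, on 22 UMIs.

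Cdh2 had the reverse distribution. It stood at 564 ± 108 CPM in stromal cells and 471 ± 15.7 CPM in osteolineage cells, with 3.29 ± 4.04 CPM in endothelium. Across the 42 gate and library sums of at least 20 cells, the Pearson correlation of Cdh2 with the 5 endothelial genes, on log2(CPM + 10), ran from -0.486 to -0.321. Icam1 and Icam2 gave the highest correlation among the members (0.912), and Vcam1 stayed between 0.128 and 0.469 with the other 6. These sums share libraries and differ in depth, so the values are descriptions.

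**Figure D1:**
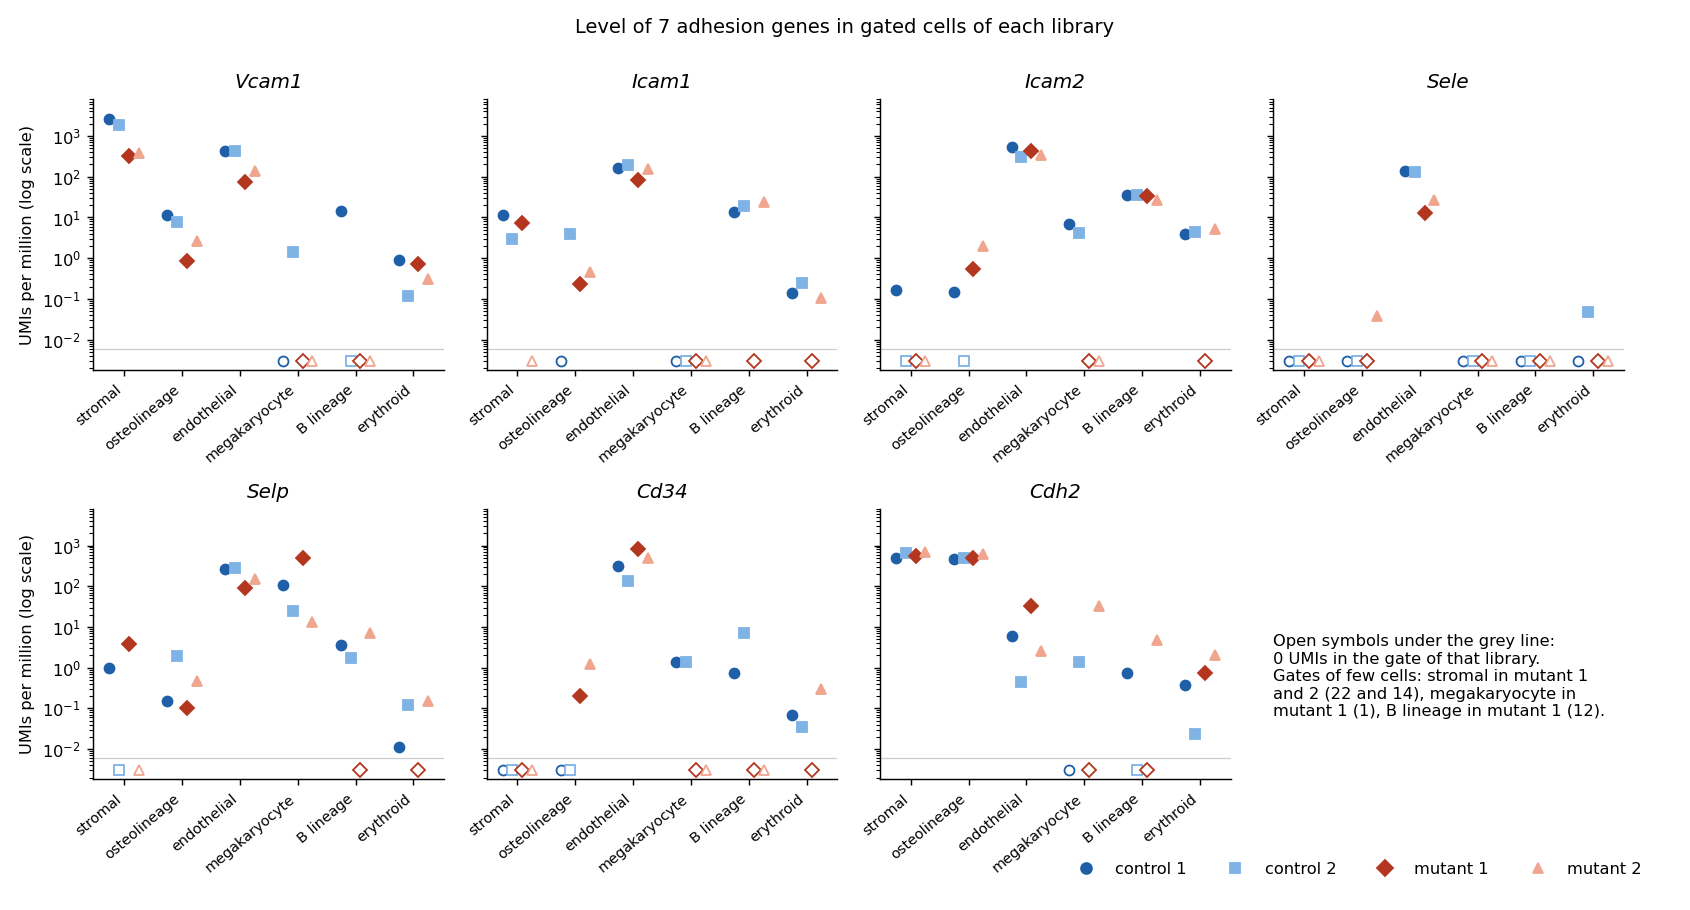
Level of each gene in 6 gates of each library, in CPM on a log axis; each symbol is 1 library and open symbols under the grey line hold 0 UMIs. Vcam1 is high in stromal cells and endothelium, Cdh2 in stromal and osteolineage cells, and the other 5 genes in endothelium.

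With library as a block, 6 of the 7 genes differed between the endothelial and mesenchymal gates, where mesenchymal means stromal, osteolineage, chondrocyte and fibroblast gate cells together. In this comparison 38.1% of 13445 genes passed an adjusted p of 0.05, 16.3% as higher and 21.9% as lower in endothelium. Endothelium was higher by 10.25 ± 0.53 for Sele, 8.48 ± 0.60 for Icam2, 8.19 ± 0.29 for Selp, 7.49 ± 0.33 for Cd34 and 6.24 ± 0.56 for Icam1 (log2 ± SE, edgeR; largest adjusted p = 3.71e-05). Cdh2 was lower by 7.67 ± 0.82 on that scale (log2 difference -7.67, adjusted p = 9.7e-05). Vcam1 did not pass (1.34 ± 1.11, adjusted p = 0.384). This fit pooled the genotypes, whose mean Vcam1 levels differed between the gates in opposite directions. The controls had 830 ± 593 CPM in mesenchyme and 428 ± 4.46 in endothelium, and the mutants 4.33 ± 1.9 and 104 ± 44.3 (SD, n = 2 libraries). The comparison was added after levels had been seen.

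Vcam1 fell further than any other of the 7 genes in mutant mesenchyme. The mesenchymal gate held 1249 and 410.5 CPM in control 1 and control 2, and 2.99 and 5.67 CPM in mutant 1 and mutant 2. Both controls lay far above both mutants, with 16234 and 647 UMIs against 121 and 150. The log2 difference was -7.13 ± 0.50 (adjusted p = 2.43e-06), and it was -8.29 within batch 1 and -5.94 within batch 2. Of the 6 members tested in this gate Vcam1 and Icam1 passed as lower and Cdh2 as higher. Over all 13965 genes tested 29.7% passed, 14.8% in each direction.

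The makeup of the mesenchymal gate shifted with it. Stromal cells were 74.6% (exact 95% interval 72.1 to 77.0) and 45.9% (35.8 to 56.3) of the gate in the controls, and 1.18% (0.742 to 1.78) and 1.11% (0.608 to 1.85) in the mutants. All 11 stromal markers summed to 18720 and 7639 CPM in the controls and 567 and 373 CPM in the mutants. How much of the Vcam1 difference this shift carries was not tested, and the levels within each subtype are given instead.

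Within the stromal gate, Vcam1 stood at 2640 CPM (counting interval 2599 to 2681) and 1915 CPM (1770 to 2070) in the controls. It stood at 317 CPM (253.5 to 392) in the 22 cells of mutant 1 and 380 CPM (299 to 476) in the 14 cells of mutant 2. The genotypes did not overlap, and the control mean was 6.53 times the mutant mean. There was no test, because mutant 2 had under 20 cells. Vcam1 UMIs were found in 99.5% and 100% of control stromal cells and in 77.3% and 78.6% of mutant ones, although the mutant cells were deeper (medians of 11580 and 12920 against 5902 and 7348 UMIs). The stromal markers that define the gate moved too: their sum was 39400 and 35670 CPM in the controls and 12140 and 12150 CPM in the mutants, where Ebf2 and Chrdl1 had no UMI in mutant 1.

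Bone-forming cells carried little Vcam1, and the osteolineage gate as a whole held less in the mutants. The osteolineage gate held 11.4 and 7.64 CPM in the controls and 0.830 and 2.64 CPM in the mutants, from 75, 8, 33 and 68 UMIs. Both mutants lay below both controls. Vcam1 fell by 3.02 ± 0.44 on the log2 scale (log2 difference -3.02, adjusted p = 2.91e-10), with -3.86 within batch 1 and -1.78 within batch 2. In this gate 23.6% of 12895 genes passed, and 10.5% passed as lower and 13.1% as higher. Without control 1 the difference was -2.24 (adjusted p = 0.29) and without control 2 it was -2.97 (adjusted p = 0.0966). With Leiden clusters in place of gates it was -1.41 (adjusted p = 0.0613). The summed stromal markers in the same gate overlapped between genotypes, at 332 and 155 CPM in the controls and 469 and 278 CPM in the mutants. Barcodes of 10 to 100 UMIs, which hold no cell, had 114, 13.8 and 7.72 CPM of Vcam1 in control 1, control 2 and mutant 2. The part of such free RNA in the Vcam1 counts of this gate was not tested.

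The makeup of this gate shifted too: osteocytes were 8.45% and 9.30% of it in the controls and 26.8% and 25.1% in the mutants, and mature osteoblasts 50.3% and 60.5% against 35.2% and 44.8%. The part of this shift in the Vcam1 difference was not tested. In both controls and mutant 1 the level was highest in the bone progenitor gate, marked by Col12a1, Olfml2b and Postn. That gate held 68.9 and 79.9 CPM in the controls and 3.21 and 4.56 CPM in the mutants, and the genotypes did not overlap. Few cells held the gene: 12 of 41 in control 1, 2 of 7 in control 2, 14 of 537 in mutant 1 and 6 of 137 in mutant 2. Mature osteoblasts held 3.46, 1.38, 0.133 and 0.555 CPM in the order control 1, control 2, mutant 1, mutant 2, on 13, 1, 2 and 7 UMIs, and a fit added after gate sizes were seen gave a log2 difference of -3.46 ± 1.05 (adjusted p = 0.00892). Of all genes 18.2% passed in these cells, 7.65% as lower and 10.6% as higher. For Vcam1 the call ended when control 2 or either mutant library was left out, and under DESeq2 (adjusted p = 0.314), and without control 1 the gene could not be tested.

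The fall was not seen in every subtype. Osteocytes held 1.33 and 0 CPM of Vcam1 in the controls and 0 and 2.53 CPM in the mutants. Osteolineage cells of no named subtype held 13.4 and 0 CPM in the controls and 0 and 16.5 CPM in the mutants, so mutant 2 was the highest library in both. In the osteocyte gate of mutant 2, 21 of the 22 Vcam1 UMIs came from 1 cell. The 31 osteolineage cells of mutant 2 with a Vcam1 UMI had a median depth of 2252 UMIs, against 20000 in those without. Thinned to 1000 UMIs per cell, 0.845% of control and 0.532% of mutant osteolineage cells kept a Vcam1 UMI, and the libraries overlapped. Thinned to 3000 UMIs the means were 3.12% and 0.340%, without overlap. Thinned mesenchymal cells with Vcam1 were 66.1% (63.4 to 68.7) and 33.7% (24.4 to 43.9) of cells in the controls and 0.483% (0.221 to 0.916) and 1.35% (0.787 to 2.15) in the mutants. Unthinned, these shares were 76.8%, 51.0%, 1.83% and 3.49%. Erythroid cells of the same libraries gave 0.12% and 0 in the controls and 0 in both mutants when thinned, at medians of 12760 to 32310 UMIs before thinning. The difference of the thinned shares, 49.0 percentage points lower in the mutants (-48.96), had an exact two-sided permutation p of 0.333 over 6 splits, the smallest that 2 against 2 libraries allow.

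**Figure D2:**
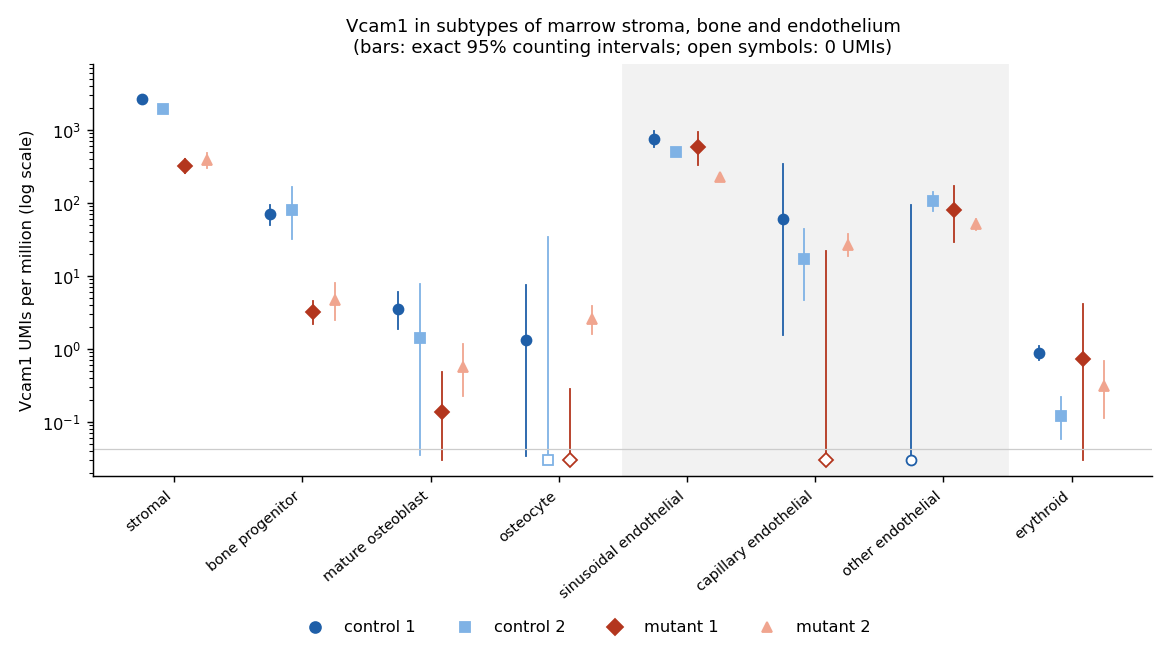
Vcam1 in CPM, on a log axis, in 8 subtypes; each symbol is 1 library, bars are exact 95% counting intervals and open symbols hold 0 UMIs. Stromal and bone progenitor symbols of the mutants lie below those of the controls. Sinusoidal symbols of all 4 libraries lie between 225 and 748 and overlap between genotypes, with the mutant below the control of its batch.

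Stromal and osteolineage cells of the same library differed in Vcam1 far more than in Cdh2. Over the 3 libraries with at least 20 cells in both gates, Vcam1 was higher in stromal cells by 7.37 ± 0.34 (log2, adjusted p = 2.34e-07) and Icam1 by 3.51 ± 1.18 (adjusted p = 0.0422). The value for Cdh2 was -0.54 ± 0.23 (adjusted p = 0.103), and without mutant 1 it was -0.56 with an adjusted p of 0.00304. In this added comparison 29.2% of 12164 genes passed, 14% as higher and 15.3% as lower in stromal cells.

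Icam1 was nearly absent from mesenchyme, and fell there from a low level. The mesenchymal gate held 5.54 and 3.17 CPM in the controls and 0.371 and 0.454 CPM in the mutants, on 72, 5, 15 and 12 UMIs. All 72 UMIs of control 1 were in stromal gate cells, and 4 of the 5 UMIs of control 2 were in the osteocyte gate. The log2 difference was -3.14 ± 0.60 (adjusted p = 0.00248), with -3.46 and -2.65 within the batches. Without control 1 it was -2.60 (adjusted p = 0.164), without mutant 1 it was -3.09 (adjusted p = 0.063), and with Leiden clusters in place of gates it was -1.96 (adjusted p = 0.15). Within the stromal gate the levels overlapped, at 11.8 and 3.01 CPM in the controls and 7.47 and 0 CPM in the mutants.

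Cdh2, on the minus strand of chromosome 18, stood high in stromal and bone cells of both genotypes, and at 5.10 to 143 CPM in chondrocytes. The mesenchymal gate held 464 and 456 CPM in the controls and 489 and 617 CPM in the mutants, which did not overlap but differed by a ratio of means of 1.2. After TMM scaling the difference was 0.57 ± 0.18 on the log2 scale (adjusted p = 0.0309), and it missed the threshold without the batch term, with Leiden clusters, and when any library was left out. In osteolineage cells the levels were 460 and 482 against 493 and 628 CPM, with a log2 difference of 0.10 ± 0.17 (adjusted p = 0.724). In stromal cells they overlapped, at 488 and 640.5 CPM in the controls and 556 and 675 CPM in the mutants. Mature osteoblasts held 466 and 478 CPM in the controls and 554 and 709 in the mutants (log2 difference 0.22 ± 0.20, adjusted p = 0.505). Osteocytes held 356 and 229 CPM against 447 and 535.

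The other 4 genes had too few UMIs in mesenchyme to follow. Icam2 held 2, 1, 21 and 51 UMIs in the order control 1, control 2, mutant 1, mutant 2 (log2 difference 2.0, adjusted p = 0.0987; 0.0499 with the stricter cell filter). Cd34 held 22, 0, 126 and 39 UMIs (1.54, adjusted p = 0.0888; 0.0405 with 1 more marker per gate), and of these 22, 118 and 7 UMIs in control 1, mutant 1 and mutant 2 came from fibroblast gate cells, at 383, 536 and 345 CPM. Selp held 7, 2, 5 and 12 UMIs, and Sele held 1 UMI in all, so Sele did not pass the filter on low counts. The part of free RNA in such counts was not tested. Barcodes of 10 to 100 UMIs, which hold no cell, had 6.08, 20.2 and 27.6 CPM of Icam2 and 2.36, 5.23 and 28.5 CPM of Cd34 in control 1, control 2 and mutant 2.

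**Figure D3:**
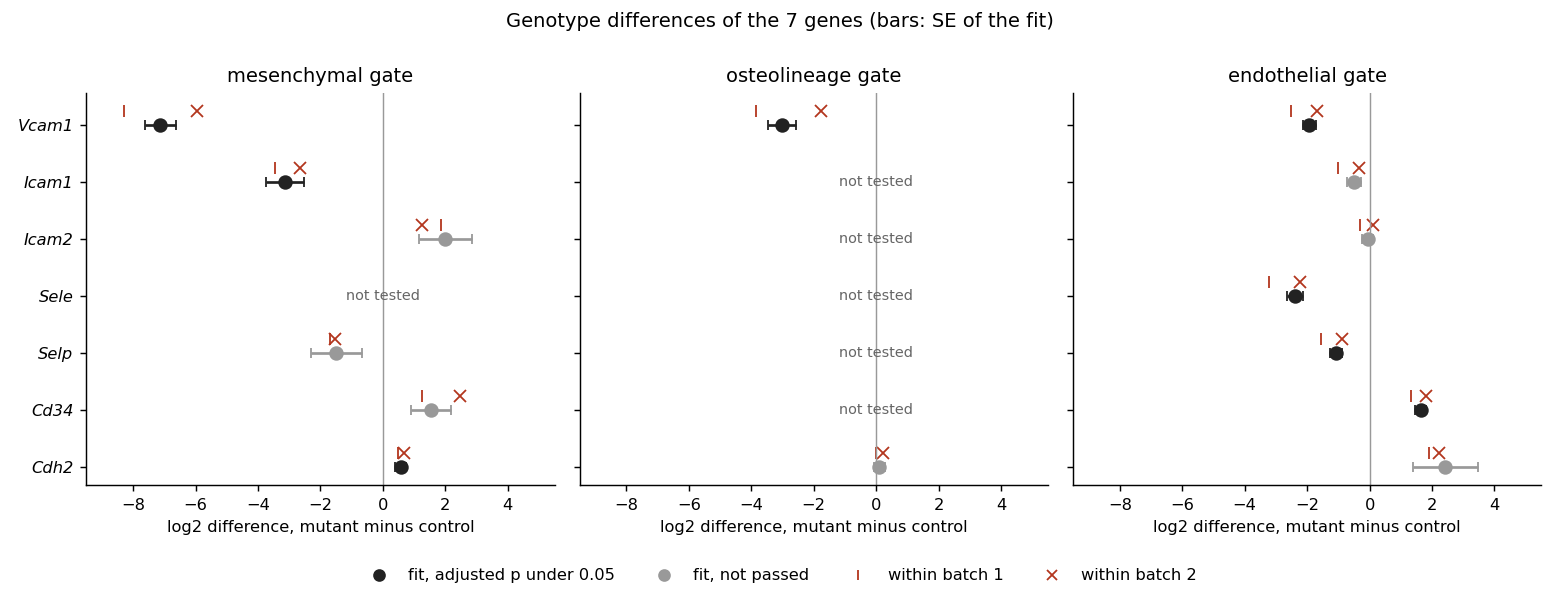
Log2 difference, mutant minus control, of the 7 genes in 3 gates; circles are the edgeR fit with its SE (black where the adjusted p is under 0.05), red marks are the values within each batch. Vcam1 lies below 0 in all 3 gates, at -7.13, -3.02 and -1.93, and Cd34 lies above 0 in endothelium.

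In the endothelial gate all 7 genes passed the filter, and 4 passed the test: Sele, Vcam1 and Selp were lower and Cd34 was higher in the mutants. For comparison, 4.55% of 10667 genes passed in this gate, 2.67% as lower and 1.87% as higher. The median log2 difference of the 7 genes was -0.50, and that of all genes was 0.01. With 25 endothelial cells in control 1 and 45 in mutant 1, control 2 weighs heavily in these calls. The edgeR fit without control 2, which like every genotype fit with a library left out has no batch term, called 0 genes of the whole table, and 288 had an unadjusted p under 0.05. With all 4 libraries and no batch term 80 genes passed, Vcam1 and Sele among them but not Selp or Cd34.

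Among the 7 genes, E-selectin showed the deepest endothelial fall. Sele stood at 135 and 129 CPM in the controls and 13.2 and 27.4 CPM in the mutants, on 22, 594, 4 and 252 UMIs. Both mutants lay well below both controls. The log2 difference was -2.39 ± 0.26 (adjusted p = 7.01e-10), with -3.22 and -2.24 within the batches, and without control 2 it was -2.54 (adjusted p = 0.815). UMIs of Sele were found in 48.0% and 43.3% of control cells and in 6.67% and 13.7% of mutant cells. After thinning, these shares were 12% and 10.3% against 2.22% and 2.41%, and erythroid cells gave at most 0.0397%.

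P-selectin fell less. Selp stood at 271 and 282 CPM in the controls and 92.3 and 154 CPM in the mutants, and again the genotypes did not overlap. The log2 difference was -1.07 ± 0.20 (adjusted p = 0.00015), with -1.54 and -0.88 within the batches. Megakaryocyte markers summed to 98.4 and 133 CPM in control and 42.9 and 70.3 CPM in mutant endothelium, and their part in the Selp difference was not tested. The Selp call missed the threshold under DESeq2 (adjusted p = 0.074), without the batch term (adjusted p = 0.18), and without control 1, control 2 or mutant 1 (adjusted p = 0.0505, 0.925 and 0.215).

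Of the integrin ligands, Vcam1 alone passed. Its endothelial levels were 424 and 431 CPM in the controls and 72.5 and 135 CPM in the mutants, on 69, 1984, 22 and 1242 UMIs, with both mutants far below both controls. The log2 difference was -1.93 ± 0.20 (adjusted p = 1.8e-10), with -2.52 and -1.68 within the batches and -2.0 without control 2 (adjusted p = 0.909). Icam1 stood at 166 and 195 CPM against 82.4 and 156 CPM, without overlap, but did not pass (-0.50 ± 0.21, adjusted p = 0.286). Icam2 overlapped, at 523 and 310 CPM in the controls and 419 and 336 CPM in the mutants (-0.06 ± 0.18, adjusted p = 1).

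Cd34 rose. Its endothelial levels were 320 and 135.5 CPM in the controls and 811 and 483 CPM in the mutants, and both mutants lay above both controls. The log2 difference was 1.64 ± 0.18 (adjusted p = 1.08e-09), with 1.34 and 1.82 within the batches. Without the batch term it was 1.62 (adjusted p = 0.175), and without control 2 it was 0.96 (adjusted p = 0.925). Cells with a Cd34 UMI were 32.0% and 24.5% of control endothelium and 86.7% and 82.2% of mutant endothelium. After thinning they were 16.0% and 8.99% against 55.6% and 35.3%, and erythroid cells gave at most 0.126%. Markers of blood stem and progenitor cells, which also carry CD34, overlapped between genotypes in this gate, at sums of 92.3 and 40.4 CPM against 85.7 and 47.2 CPM. The part of such cells in the Cd34 difference was not tested. Cdh2 had 1, 2, 10 and 23 UMIs in endothelium (2.43 ± 1.04, adjusted p = 0.292), and the osteolineage markers summed to 203 and 63.8 CPM in control and 475 and 639 CPM in mutant endothelium. The part of osteolineage cells or of free RNA in these Cdh2 counts was not tested.

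The kinds of vessel in the endothelial gate shifted as well. Sinusoidal cells, marked by Stab2, Stab1 and Flt4, were 56.0% (34.9 to 75.6) and 84.1% (80.7 to 87.1) of the gate in the controls and 8.89% (2.48 to 21.2) and 46.6% (43.2 to 50.1) in the mutants. Capillary cells, marked by Flt1, Aplnr and Sparcl1, were 8% and 4.49% against 51.1% and 15.1%. Endothelial cells of no named subtype were 32% and 10.9% in the controls and 28.9% and 37.2% in the mutants. Over the whole gate the sinusoidal markers summed to 5043 and 6184 CPM in the controls and 1493 and 2712 CPM in the mutants, and the capillary markers to 3327 and 2533 against 4871 and 4085. Their part in the 4 endothelial calls was not tested.

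The subtypes differed in the same genes when they were compared inside a library. Over control 2 and mutant 2, the libraries with at least 20 cells of both subtypes, sinusoidal cells were higher in Selp by 3.69 ± 0.26, in Vcam1 by 3.55 ± 0.31, in Sele by 2.38 ± 0.29 and in Icam1 by 1.24 ± 0.20 (log2 ± SE). They were lower in Cd34 (-3.00 ± 0.55). The adjusted p ran from 0.000317 for Selp to 0.0234 for Cd34, and 4.01% of 10747 genes passed, 2.64% as higher and 1.37% as lower in sinusoidal cells. Icam2 did not pass (-0.57 ± 0.13, adjusted p = 0.0568), although it did with other size factors, without the low-count filter and with 1 more marker per gate (adjusted p = 0.0466, 0.0164 and 0.0041). All 4 libraries at any number of cells gave the 5 called genes the same directions, from -3.28 for Cd34 to 3.93 for Vcam1. The fit was restricted to these libraries after gate sizes had been seen.

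Within sinusoidal cells, a comparison of genotypes was limited to a description, because control 1 held 14 and mutant 1 held 4 of them. In batch 2, with 449 control and 387 mutant cells, Vcam1 stood at 498.5 CPM (477 to 521) against 225 (211 to 239) and Sele at 149.5 CPM (138 to 162) against 36.4 (31.1 to 42.3). Selp stood at 322 CPM (304 to 340) against 250 (236 to 265). Icam1, at 215 CPM (200.5 to 230) against 199 (186 to 212), and Icam2, at 291 CPM (274 to 308.5) against 293 (278 to 309), had overlapping counting intervals. The few sinusoidal cells of batch 1 gave the same order for Vcam1 and Sele and the opposite one for Selp: Vcam1 was 748 CPM in control 1 and 571 CPM in mutant 1, Sele was 220 and 107 CPM, and Selp was 418 and 571 CPM. Icam1 was 231 CPM in control 1, on 21 UMIs, and 71.4 CPM in mutant 1, on 2 UMIs. The summed sinusoidal and capillary markers of the batch 2 sinusoidal cells differed between genotypes too, as given below. The part of that difference in these levels was not tested.

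Cd34 in sinusoidal cells stood at 0 and 36.9 CPM in the controls and 107 and 273 CPM in the mutants. In control 1, with 0 UMIs, 3 UMIs would have given 33.0 CPM, and mutant 1 rests on 3 UMIs. In batch 2, 16.0% of control and 70.8% of mutant sinusoidal cells held a Cd34 UMI, at medians of 8203 and 11440 UMIs. Capillary cells differed less, with overlapping intervals at 906 CPM (788 to 1037) in control 2 and 926 CPM (874 to 980.5) in mutant 2, and the 3 and 9 arterial cells stood at 864 and 973 CPM. In the same sinusoidal cells of control 2 and mutant 2, the sinusoidal markers summed to 6993 and 4092 CPM and the capillary markers to 2204 and 3791 CPM. The part of this marker shift in the Cd34 levels was not tested.

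Single sinusoidal cells with a Vcam1 UMI more often held a selectin UMI. In control 2, Selp UMIs were in 86.7% of cells with Vcam1 and 67.4% of cells without, and in mutant 2 in 89.8% and 65.2%. Sele was in 53.6% against 32.6% in control 2 and in 24.3% against 13% in mutant 2. Cd34 went the other way, with 14.7% against 21.4% and 67.7% against 75.2%. Median depths of cells with and without Vcam1 were close, at 8240 and 8132 UMIs in control 2 and 11520 and 11250 UMIs in mutant 2. Cells of 1 library are not replicates, so these shares carry no test.

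**Figure D4:**
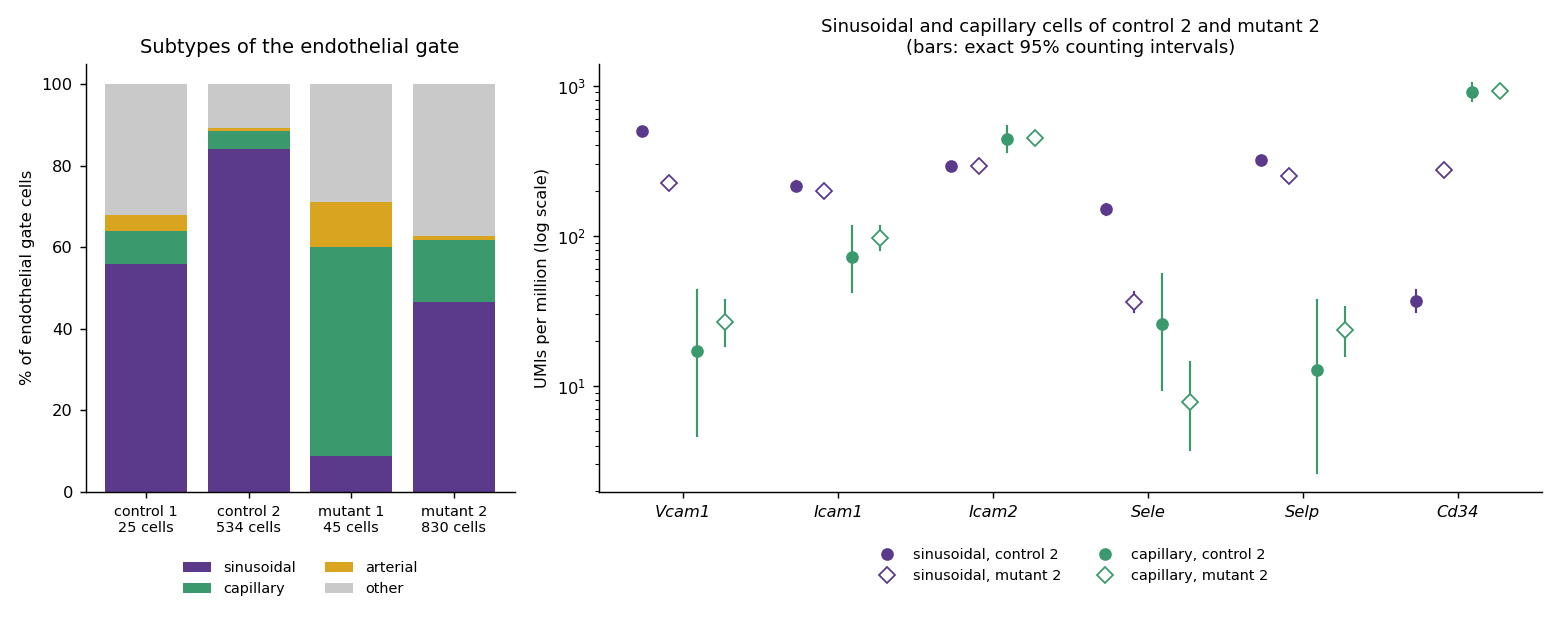
Left, share of endothelial gate cells by subtype in each library, in percent. Right, level of 6 genes in sinusoidal and capillary cells of control 2 (filled) and mutant 2 (open), in CPM on a log axis with exact 95% counting intervals: Cd34 is highest in capillary cells, and Vcam1, Sele and Selp in sinusoidal cells.

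The genotype differences of mesenchyme and endothelium were then compared in 1 fit, where 6.14% of 13445 genes passed, 4.05% as higher and 2.09% as lower in endothelium. Vcam1 fell in both gates, and the endothelial fall was smaller (endothelial minus mesenchymal 5.07 ± 0.41 log2, adjusted p = 2.41e-31). For Icam1 this difference was 2.66 ± 0.52 (adjusted p = 1.87e-05). For Icam2 it was -2.88 ± 0.72 (adjusted p = 0.0024), on at most 2 Icam2 UMIs per control in mesenchyme. Without control 1 it was 1.83 for Icam1 (adjusted p = 0.28) and -0.86 for Icam2 (adjusted p = 0.912), and without mutant 2 it was -1.82 for Icam2 (adjusted p = 0.293). Sele, Selp, Cd34 and Cdh2 did not pass. The makeup of both gates shifted between genotypes, as given above, and the part of these shifts in the differences was not tested. Within the stromal gate the control mean of Vcam1 was 6.53 times the mutant mean, and within the endothelial gate 4.12 times. Genes of like abundance shared 1 spread in this fit, so its p-values do not rest on the spread of each gene by itself.

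The cells that supplied each message differed between libraries. Stromal cells held 91.4% of the Vcam1 UMIs of control 1 and 23.1% of those of control 2. In mutant 1 they held 52.5%, and in mutant 2 4.6%. Endothelial cells held 0.390%, 72.1%, 13.6% and 75.2%. Control 1 had the most stromal cells, and control 2 and mutant 2 the most endothelial cells. Cdh2 came almost only from mesenchymal cells, with 93.6%, 89.3%, 97.4% and 88.9% of its UMIs. Endothelial cells held 22.9%, 90.3%, 60.6% and 88.4% of the Cd34 UMIs, and at least 80% of the Sele UMIs of each library. Megakaryocytes held 52.8% of the Selp UMIs of control 1, where endothelial cells were few.

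**Figure D5:**
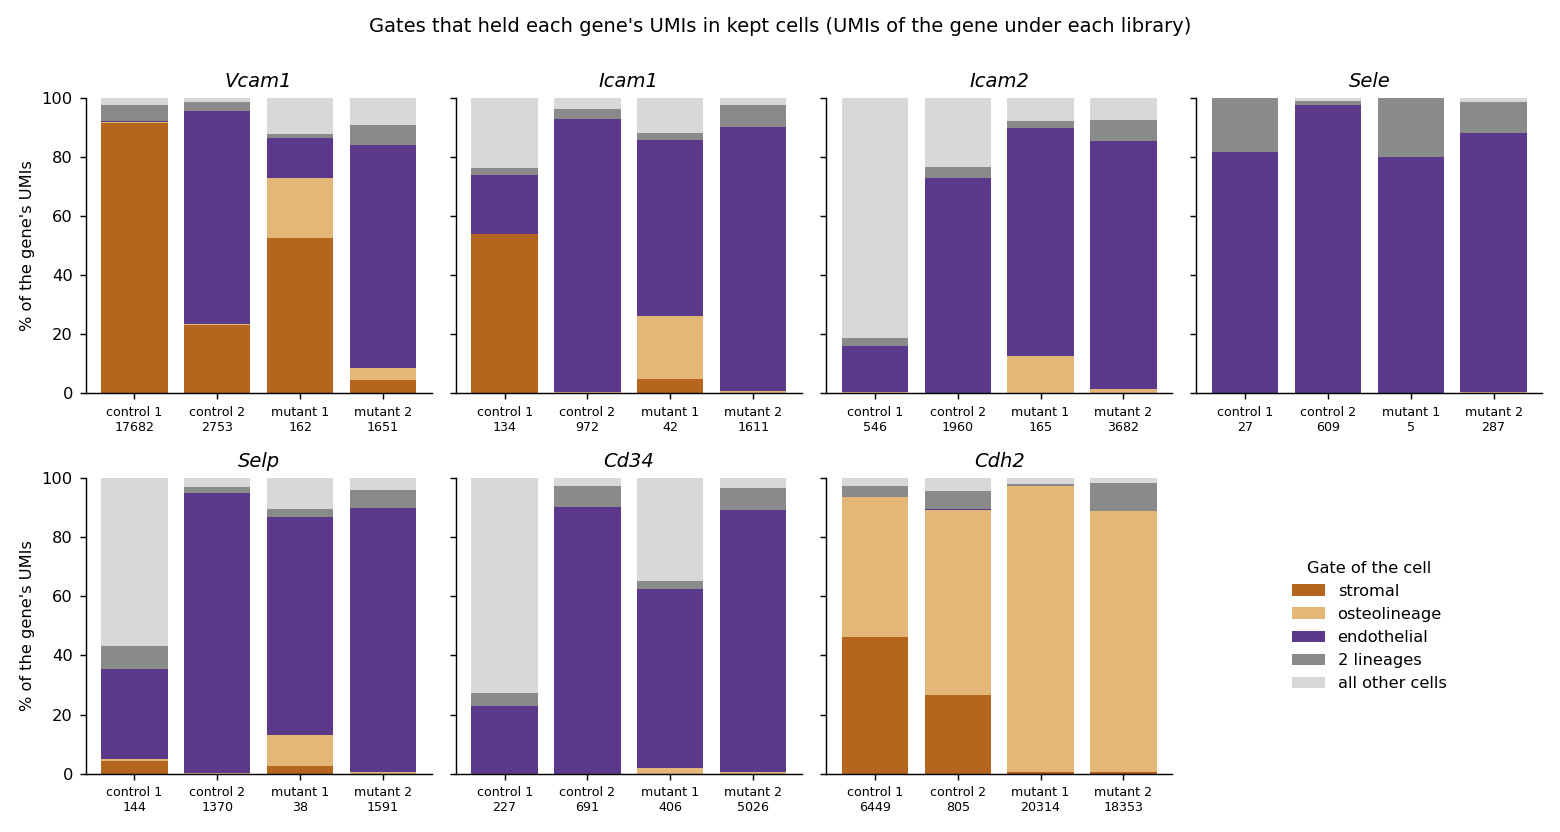
Share of each gene's UMIs, in percent, that lay in stromal, osteolineage, endothelial, doubly gated and all other kept cells, 1 bar per library with the gene's UMI total under it. Vcam1 comes mainly from stromal cells in control 1 (91.4%) and mainly from endothelium in control 2 and mutant 2.

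Lists of genes that work with the 7 members were then counted. How much of the list calls the shifts in gate makeup given above carry was not tested. Shares of all genes that passed are given for comparison, in endothelium 2.67% as lower and 1.87% as higher. In endothelium the junction and sialomucin list had 1 lower and 4 higher of 13 tested (median log2 0.28). Madcam1, a mucosal homing ligand of integrin alpha4 beta7, fell (-3.85, adjusted p = 0.00214), while Jam2 (1.28, adjusted p = 0.00856) and endomucin, Emcn (0.62, adjusted p = 0.0156), rose. Cadherins and catenins had 2 higher of 7 (median 0.56), led by Cdh13 (1.19, adjusted p = 0.000316). Inducers of inflammation had 2 lower of 13 (median -0.26): Il1r1, the interleukin-1 receptor (-1.21, adjusted p = 0.0161), and Nfkb2 (-1.13, adjusted p = 0.0174). Of the enzymes that build selectin ligands, 1 of 8 fell (median -0.11), the sulfotransferase Chst2 (-1.22, adjusted p = 9.25e-06). The anchors and storage granule genes had 1 higher of 9 (median -0.06), Cd9 (0.62, adjusted p = 0.0395), and the integrins and other counter-receptors 0 of 8 (median 0.37). Madcam1 was not tested without control 2, and the other endothelial calls named here ended without it.

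In the mesenchymal gate, 5 of 14 inflammation inducers fell and none rose (median -0.46 beside 0 for all genes), where 14.8% of all genes passed in each direction. Il1r1 fell by 3.02 on the log2 scale (log2 difference -3.02, adjusted p = 2.59e-06), followed by Irf1 (-1.58, adjusted p = 0.000492) and Nfkb1 (-0.75, adjusted p = 0.0305). In the osteolineage gate the same list had 1 lower and 4 higher of 14 (median 0.24), beside 10.5% lower and 13.1% higher of all genes, led by Tlr4 (2.90, adjusted p = 2.88e-07) and Map3k8 (2.13, adjusted p = 6.92e-05). Between stromal and osteolineage cells 6 of 14 were higher in stromal cells, beside 14% of all genes (median 1.10), Il1r1 among them (3.21, adjusted p = 6.52e-05).

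The other lists are counted beside the same shares of all genes, 14.8% in each direction in mesenchyme and 10.5% lower and 13.1% higher in the osteolineage gate, and counts of 1 or 2 of about 10 are near those shares. Itga4, the alpha4 chain that binds VCAM-1, fell in the mesenchymal gate (-2.15, adjusted p = 0.00882) as 1 of 11 counter-receptors tested (median 0.06), and in the osteolineage gate (-2.35, adjusted p = 0.00179). There 2 of 10 counter-receptors rose, Itgb1 (0.50, adjusted p = 0.025) and Itga6 (1.64, adjusted p = 0.0455), at a list median of 0.22. Among cadherins in the osteolineage gate, Cdh15 fell (-1.85, adjusted p = 3.14e-14) and Cdh11, the osteoblast cadherin, rose (0.63, adjusted p = 0.00284), at a median of 0.20 over 8 genes. In mesenchyme 1 of 8 cadherins was lower and 1 higher (median -0.03). Tpst2, which sulfates tyrosines of selectin ligands, rose in the mesenchymal (2.37, adjusted p = 8.38e-06) and osteolineage gates (1.96, adjusted p = 2.74e-15), among 2 of 9 higher and 2 lower (median -0.01) and 1 of 9 in each direction (median -0.08). Of the junction list, 2 of 13 rose in mesenchyme (median 0.25), with Epcam at 2.14 (adjusted p = 0.00304) and Jam3 at 0.91 (adjusted p = 0.00687), and 2 of 12 rose and 2 fell in the osteolineage gate (median 0.73), with Alcam at -1.77 (adjusted p = 0.000451). Of the anchors, 4 of 8 rose and 1 fell in mesenchyme (median 0.30), and 3 of 8 rose in the osteolineage gate (median 0.18). Of the mesenchymal and osteolineage calls named in these lists, Il1r1 and Tpst2 in mesenchyme passed in every alternative run, and each other missed the threshold in at least 1.

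Genes with the most similar pattern were sought among 13240 genes, by Pearson correlation of log2(CPM + 10) over the same 42 sums from 16 gates. Trf (0.904), Lpl (0.879) and Itga1 (0.870) came closest to Vcam1. For the selectins these were Stab2 (0.957), Gm46565 (0.955) and F8 (0.947) for Sele, and Lbx2 (0.915), Adora2a (0.903) and Apold1 (0.891) for Selp. Cd34 ran with Ly6c1 (0.971), Sparcl1 (0.951) and Ly6a (0.948), and Icam2 with Adgrl4 (0.978), Rasgrp3 (0.977) and Egfl7 (0.975). Icam1 came closest to Cd38 (0.939), Ahr (0.937) and Gimap8 (0.932), and Cdh2 ran with Clec11a (0.970) and Slit2 (0.965). Lpl, Stab2, Sparcl1 and Egfl7 were themselves markers of the gates.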

How the data were processed

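Sorted limb marrow cells of 2 control and 2 mutant mouse libraries were profiled with 10x Genomics 3′ v3.1 reagents. Deposited values are raw UMI counts (whole numbers, integer matrices per the file headers) that Cell Ranger made on mm10, per the submitters' processing notes. The notes give version 5.0.1 in batch 1 (control 1, mutant 1) and version 6.1.2 in batch 2 (control 2, mutant 2). The header of mutant 1 names 5.0.1 as well, while the headers of control 1, control 2 and mutant 2 name Cell Ranger 4. The batches therefore rest on the notes, and the headers alone would set mutant 1 apart from the rest. The annotation used for counting is not stated in these sources. Mutant 1 covers 3352 called barcodes only, each with at least 501 UMIs.

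Cells with at least 1000 UMIs, 500 genes and at most 10% mitochondrial UMIs were kept. Pairs of libraries shared 2 to 10 cell barcodes, against 1.41 to 3.92 for random draws. A marker was detected at 2 or more UMIs and 50 or more CPM in a cell. Gates needed 6 of 12 endothelial, 6 of 11 stromal, 5 of 12 osteolineage (or 4 of 7 bone progenitor) or 7 of 12 erythroid markers, and 5 of 9 for the sinusoidal subtype. The capillary subtype needed 4 of 9 markers and at most 2 sinusoidal markers. The sinusoidal subtype had no limit on capillary markers. Marker levels were known when these thresholds were chosen. Cells that passed gates of 2 lineages were left out as possible doublets.

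Counts were summed per library and gate. The test was the quasi-likelihood test of edgeR 4.0.16 (R 4.3.3; TMM, filterByExpr, batch and genotype as terms, Benjamini-Hochberg over all genes, threshold 0.05), where every library had at least 20 cells. This leaves 1 residual degree of freedom, and the prior degrees of freedom were 10.2 in mesenchyme and 51.6 in endothelium. They were infinite in osteolineage cells, in mature osteoblasts and for the difference of genotype effects, where genes of like abundance then shared 1 spread. Gate comparisons and the difference of genotype effects used library as a block. Intervals are exact 95% limits and cover counting error only. Thinned shares drew each cell down to 1000 UMIs. Alternatives were DESeq2 1.42.0, other size factors, no low-count filter, no batch term, each library left out, Scrublet in scanpy 1.11.5, a stricter cell filter, 1 more marker per gate, and 28 Leiden clusters (leidenalg 0.10.2).

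The 7 members and the gene lists were chosen with earlier results of these data known. The text names the 7 members, at most 3 called genes of each list per gate by smallest p, and for likeness the 3 highest correlations per member, of which 1 is not reported here. Sequences are from RefSeq on GRCm38.p6, and none was printed for Cdh2.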

Additional observations from a re-analysis of the deposited data

Results flagged for a closer look

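The genotype difference itself differed between endothelium and mesenchyme for 3 of the 7 genes, by a test of that difference in which 6.14% of all genes passed. Endothelial minus mesenchymal, it was 5.07 on the log2 scale for Vcam1, 2.66 for Icam1 and -2.88 for Icam2. The cell makeup of both gates shifted between genotypes, and the part of these shifts in the values was not tested. The Icam1 and Icam2 values rest on under 100 and under 10 UMIs in control mesenchyme, and without control 1 they were 1.83 (adjusted p = 0.28) and -0.86 (adjusted p = 0.912).

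All 7 genes were also seen in barcodes too small to be cells (10 to 100 UMIs), which no comparison used. Vcam1 had its lowest level there in mutant 2, at 7.72 CPM, against 114 in control 1 and 13.8 in control 2. Cd34 and Cdh2 were flagged because mutant 2 lay above both controls. In mutant 2 these barcodes held 28.5 CPM of Cd34, against 2.36 in control 1 and 5.23 in control 2. They held 194 CPM of Cdh2, against 56.0 in control 1 and 6.35 in control 2. Mutant 1 has no such barcodes in its matrix, so this was seen in 1 library.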

How the results depend on the processing

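The fits of the 7 members gave 328 values under alternatives, of which 283 kept direction and side of the threshold, 28 lost the call, 7 gained one and 10 changed sign. The other named genes gave 537, of which 311 kept both, 224 lost the call and 2 changed sign. Vcam1 in mesenchyme passed in every alternative run. The counts of genes called moved most. In mesenchyme 4141 genes became 2498 with DESeq2 and 1942 without the batch term. The osteolineage count of 3048 became 1076 and 1095, the endothelial count of 485 became 123 and 80, and the mature osteoblast count of 2135 became 630 and 730 (DESeq2, then no batch term). With 1 more marker per gate the endothelial count was 312. Sinusoidal against capillary, 431 became 887 without the low-count filter and 831 with 1 more marker. Leaving out 1 library (genotype fits then have no batch term) gave 621 to 1893 in mesenchyme, 10 to 1619 in osteolineage cells, 0 (without control 2) to 389 in endothelium, 170 to 985 in mature osteoblasts, 385 to 634 for the difference of genotype effects, 3079 to 4658 for endothelium against mesenchyme and 1011 to 5412 for stromal against osteolineage cells. The left-out genotype fits differ from the reported ones in both samples and batch term, the stromal against osteolineage count rose without mutant 1, and the cause was not tested.

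Single calls lost in other settings were Icam1 in mesenchyme with Leiden clusters (-1.96), Vcam1 in osteolineage cells with Leiden clusters (-1.41), Cdh2 in mesenchyme without the batch term (0.57) and with Leiden clusters (0.63), Selp in endothelium with DESeq2 (-1.13) and without the batch term (-1.11), Cd34 in endothelium without the batch term (1.62), and Vcam1 in mature osteoblasts with DESeq2 (-3.30). Leave-one-out values, lost calls included, ran from -3.44 to -2.60 for Icam1 and 0.55 to 0.66 for Cdh2 in mesenchyme, from -3.63 to -2.17 for Vcam1 in osteolineage cells and -4.31 to -2.62 in mature osteoblasts, and in endothelium from -2.58 to -1.67 for Vcam1, -3.32 to -2.26 for Sele, -1.61 to -0.85 for Selp and 0.96 to 2.23 for Cd34. For the difference of genotype effects they ran from 1.83 to 3.09 for Icam1, -3.68 to -0.86 for Icam2 and -0.46 to 5.05 for Cdh2, which changed sign without control 2 and passed without mutant 2 (adjusted p = 1.18e-06). Calls gained were Icam2 in mesenchyme with the stricter cell filter (2.49, adjusted p = 0.0499), Cd34 in mesenchyme with 1 more marker (1.94, adjusted p = 0.0405) and Icam2 in sinusoidal against capillary cells under 3 alternatives (adjusted p from 0.0041 to 0.0466). Cdh2 in stromal against osteolineage cells passed without mutant 1 (-0.56, in a range of -0.59 to -0.40).

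Sign changes otherwise fell on values that had not passed, except Cdh15 in mesenchyme (-0.70, then 0.12 without control 2 and 0.01 without mutant 1, at a lowest value of -1.49). Endothelial Icam2 gave 0.26, 0.04 and 0.02 without control 1, without mutant 2 and with Leiden clusters, and was lowest at -0.52. In the difference of genotype effects, Selp gave 0.66 and 0.38 (lowest -0.35) and Cd34 gave -5.84 and -0.07 (highest 0.59) in those same 2 left-out fits, and with 1 more marker they gave 0.11 and -0.19. Shares of cells changed sign for Cdh2 in mesenchyme without mutant 2 (-0.88 points, highest 5.52) and for Icam2 in endothelium without thinning (4.38) and without control 1 (2.33, lowest -10.9).

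Genotype tests of stromal, chondrocyte, sinusoidal, capillary and arterial cells were not run, since some library held under 20 cells, and neither was arterial against sinusoidal. Replicate numbers follow deposition order and pair nothing. The batch term of the genotype fits pairs the control and mutant of each batch.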
